A study of Saccharomyces cerevisiae with 14 samples.

Results

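The genes described here encode ribosome assembly factors of budding yeast (Saccharomyces cerevisiae) whose current symbols begin with UTP, NOP, RRP, DBP, NSA, NOC or RLP and end in a number, together with MPP10, IMP3, IMP4, ENP1 and ENP2. The rule used names and no measured value. It found 74 genes in the reference gene table, of which 73 had a probe set on both array formats among 5315 such genes in all. The gene not named on both formats was NOP10, which encodes a core protein of the box H/ACA snoRNPs. Of the 73 genes, 68 passed a filter on low signals and were tested, among 4287 genes tested in all. The 5 genes under the filter were UTP4, RRP36, NOP4, NOP8 and RRP14, and since the filter takes the mean over mutants and controls together, it can remove a gene because its mutant signals were low.

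Transcript levels were measured in poly(A)+ RNA of 5 samples, 3 from ARV1 mutant strains and 2 from controls. All strains were of mating type a in the W303 background and were grown in the rich medium YEPD to mid-logarithmic stage. ARV1 encodes an endoplasmic reticulum protein linked to lipid transport, and the labels name the genotype only as ARV1 mutant, without the allele. The Ye6100 format, which spreads 1 sample over 4 chips, held control 1/2 (strain SCY328), mutant 1 (SCY820) and mutant 2 (SCY840), and the single-chip S98 format held control 3 (SCY2004) and mutant 3 (SCY840). Mutants 1 and 2 share their only control, so the ratios of these samples are not independent. The series design calls the strains different isolates of the same genotype and gives no number of cultures. The p-values therefore cover only how far these samples spread, which may be technical.

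Yeast ribosomes are built in the nucleolus from a long ribosomal RNA precursor. The small subunit processome, a large particle of the UTP complexes, the MPP10 complex and the U3 snoRNP, folds and cuts the part that becomes the small subunit, while another set of factors, many of them named NOP, RRP or DBP, matures the large subunit. DEAD-box helicases remodel the RNA along the way, and the RNA exosome trims precursor ends and degrades by-products. In growing yeast these genes are known as one of the most tightly co-regulated gene groups, high in rich medium and reduced when growth slows.

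Most of the 73 genes had lower signals in the ARV1 mutants than in the control of the same array format. The signal was lower in all 3 mutants for 43 of the 73 genes, against 14.6% of all genes on both formats, and higher in all 3 for 1 gene, RRP43, against 25.1%. Mutant 1 was below its control for 69 of 73 genes (36% of all genes), mutant 2 for 57 (52.6%) and mutant 3 for 54 (39.7%). The 73 genes had median log2 ratios of -0.76, -0.40 and -0.23 in mutants 1, 2 and 3, where all genes had medians of 0.23, -0.06 and 0.14. The value of the 73 genes in mutant 3 was -0.48 under median centring and -0.41 under quantile normalization. The median of the group minus that of all genes was -1.0, -0.34 and -0.37. As each array is scaled to a common mean signal, a smaller share of the labelled RNA and less RNA per cell cannot be told apart. A signal at least 1.5-fold lower in all 3 mutants was found for 7 genes, against 1.64% of all genes, and at least 2-fold lower in all 3 for 0 genes. Among the tested genes the 1.5-fold count was 6 (1.42% of all genes tested) and rose to 11 (3.52%) under median centring. The 7 genes were MPP10, IMP3, UTP4, NOP56, NOP15, DBP3 and RRP17. Each mutant taken alone was at least 1.5-fold below its control for 50 genes in mutant 1 (12.8% of all genes), 31 in mutant 2 (30.5%) and 13 in mutant 3 (8.32%). In the other direction the counts were 1 in mutant 1 (31.3% of all genes), 5 in mutant 2 (22.9%) and 0 in mutant 3 (24.4%).

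**Figure D1:**
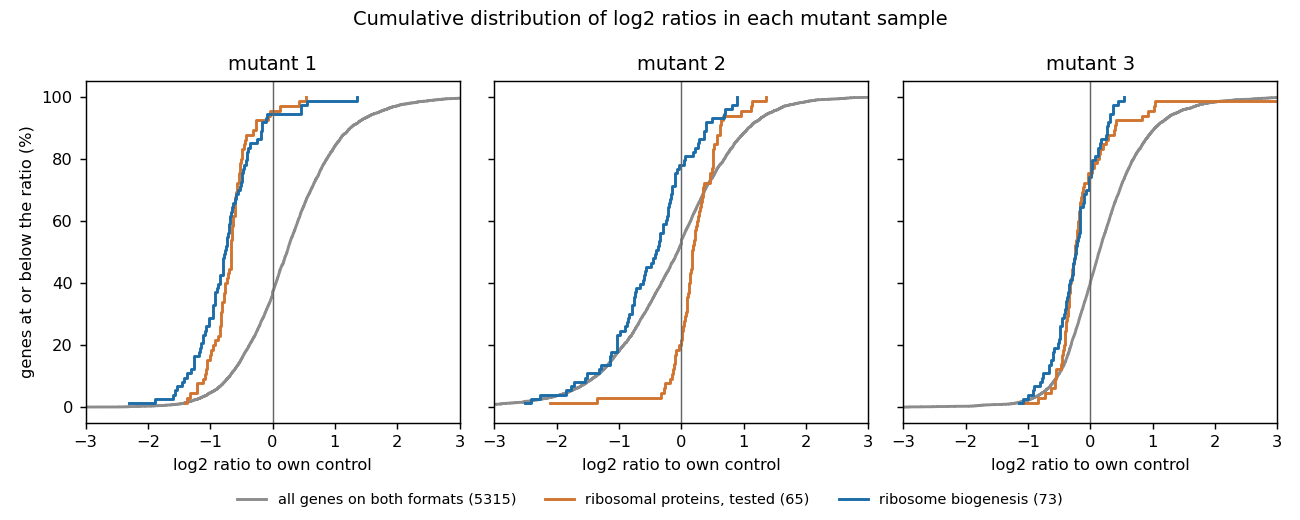
Cumulative share of genes (percent, vertical axis) at or below each log2 ratio of mutant over its own control (horizontal axis), in 1 panel per mutant, for all 5315 genes, the 65 tested cytosolic ribosomal protein genes and the 73 ribosome biogenesis genes; ratios beyond the axis limits are not drawn. The ribosome biogenesis curve lies to the left of all genes over most of the range in each mutant, but not at the lowest ratios. The lowest ratios of the 73 genes were -2.30, -2.51 and -1.14 in mutants 1, 2 and 3. Those of all genes were -3.80, -5.34 and -5.95. In mutant 2 the ribosomal protein curve lies to the right of the ribosome biogenesis curve.

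No single gene passed the test. With limma, fitted over all 4287 genes with terms for genotype and array format, 0 of 68 genes had an adjusted p under 0.05, and 0% of all genes did. The adjusted p of the 68 genes ran from 0.727 to 0.997. The fitted log2 change (mutants minus controls) was below 0 for 62 of 68 genes, against 42% of all genes tested, with a median of -0.37 against 0.096. That median was -0.60 without mutant 3 or control 3 and -0.22 without control 1/2. At an unadjusted p under 0.05, NOP15 and RRP8 were lower, 2 of 68 genes against 1.12% of all genes, and 0 genes were higher, against 5.44%. The fit has 5 samples and 2 residual degrees of freedom, and its count of calls depended on mutant 2. Without that sample limma called 9 of the 68 genes, all lower (DBP2, IMP3, IMP4, NOP15, NOP19, RLP24, RLP7, RRP8 and UTP23), while 2.29% of all genes were called lower and 13.3% higher.

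**Figure D2:**
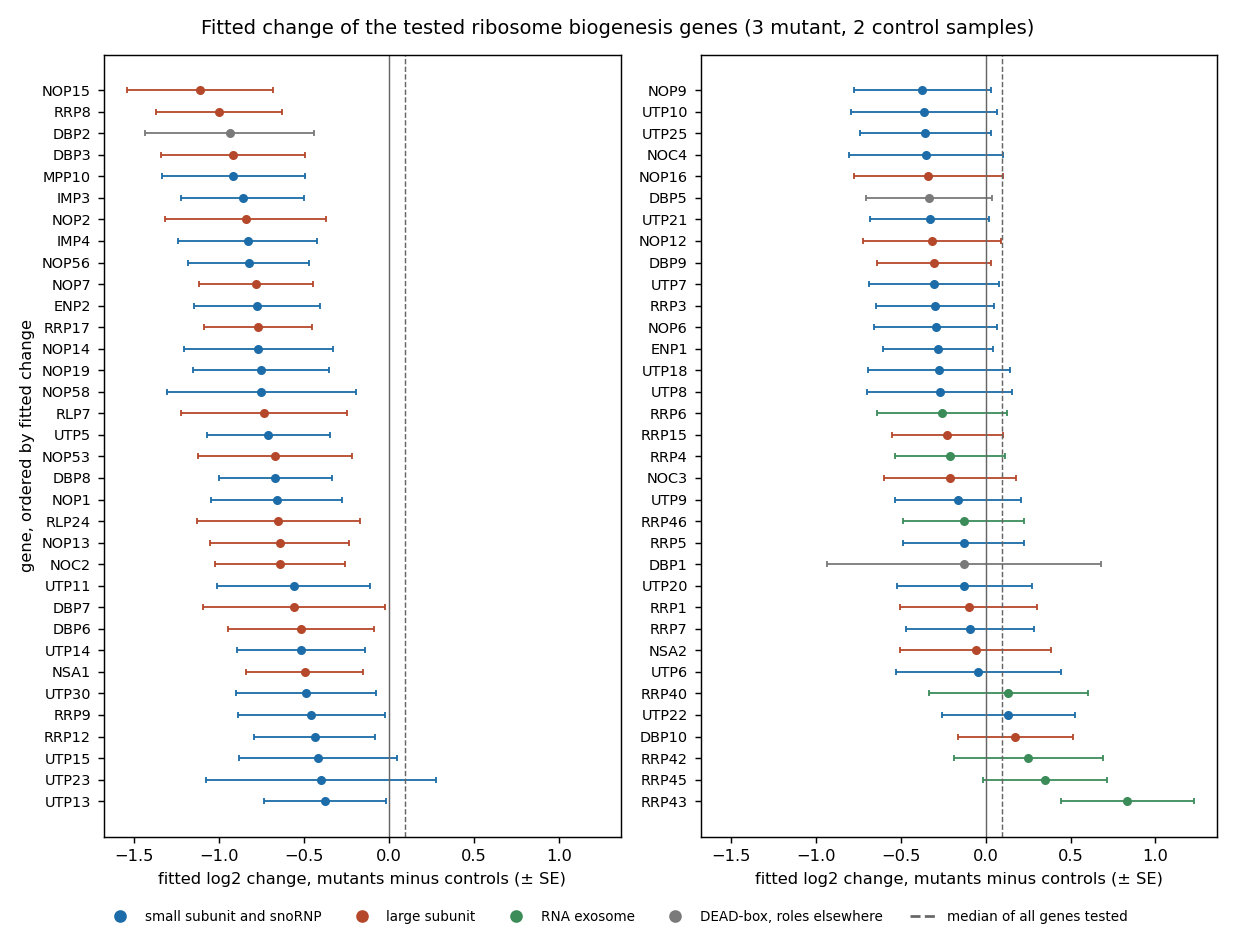
Fitted log2 change of each of the 68 tested genes, mutants minus controls (horizontal axis), with bars of 1 standard error from the limma fit of 3 mutant and 2 control samples, ordered from lowest to highest and coloured by role. The dashed line marks the median of all genes tested, 0.096. NOP15 stands lowest at -1.11 and RRP43 highest at 0.83.

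Several facts of the samples bear on these values. ARV1 itself had a Ye6100 signal of 33.4 in control 1/2 against 1.0 in mutant 1 and 2.2 in mutant 2, both under the floor of 2.4 set for low signals, with scaled S98 signals of 51.8 (control 3) and 6.79 (mutant 3). The 6 listed genes of mating type a all passed the signal filter and 0 of the 4 listed alpha genes did. The alpha genes failed it through low Ye6100 signals, while their mean S98 signals lay above the S98 cut. The ratio of 5' to 3' signal of ACT1, a measure of how complete the labelled RNA is, stood at 0.781, 0.764 and 0.351 in control 1/2 and mutants 1 and 2, and at 1.15 and 1.17 on S98. The 17 tested general stress genes had median log2 ratios of 1.38, -2.26 and 0.59 in mutants 1, 2 and 3. The 10 control probe sets for 18S and 25S ribosomal RNA, which poly(A) selection is meant to remove, were lower in both Ye6100 mutants, with median log2 ratios of -1.28 and -3.34, and had a median of 0.20 on S98. The part of any of these in the results was not tested. Without mutant 2, whose ACT1 ratio was lowest, 48 of the 68 tested genes were lower in both other mutants, against 24.5% of all genes. With all 3 mutants required the count was 39, against 14.6%. Such a count can only stay or rise when fewer mutants have to pass, so it does not bear on the ACT1 ratio. Over 26 control probe sets repeated on all 4 Ye6100 chips, the SD that chip-to-chip spread gives a log2 ratio was 0.37 for mutant 1 and 0.38 for mutant 2. That SD leaves out any spread between cultures. It also treats the chips of mutant and control as unpaired, so it counts differences between chips A to D that both samples share and that cancel in a ratio.

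**Figure D3:**
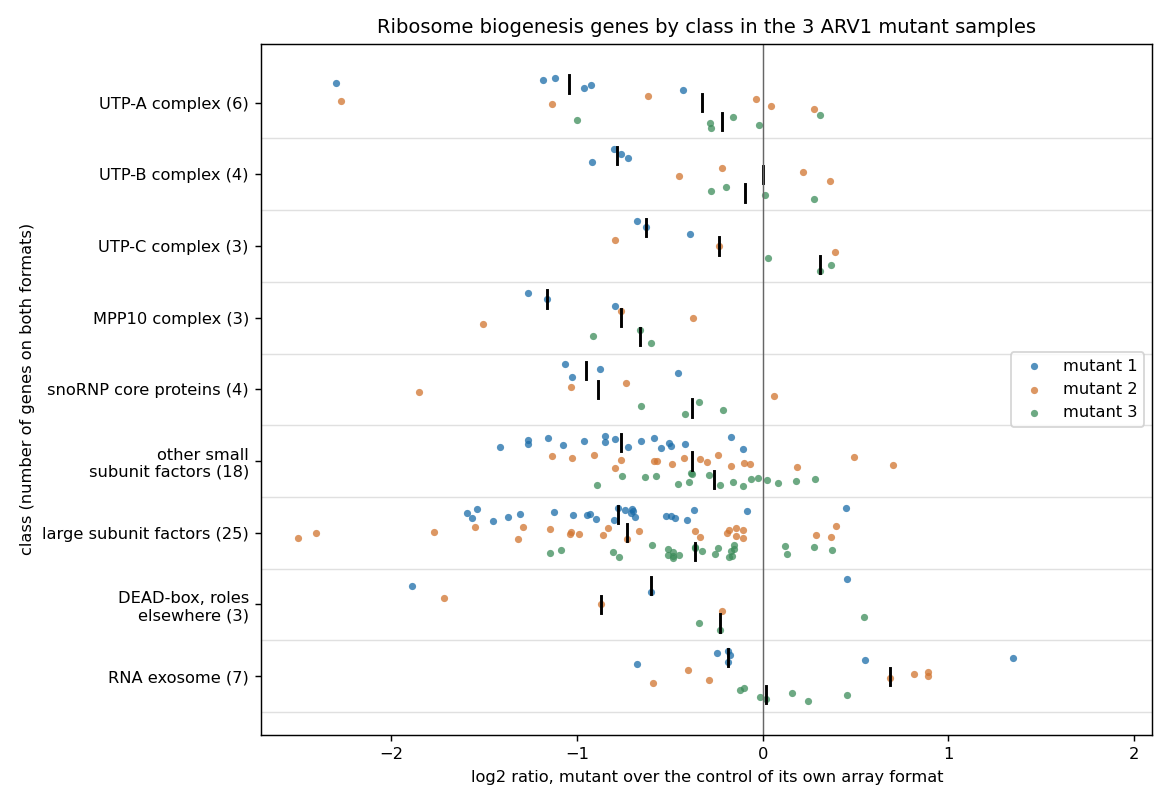
Log2 ratio of each mutant over the control of its own format (horizontal axis) for the 73 genes, by class (vertical axis, with the number of genes). Each point is 1 gene in 1 mutant sample and the black ticks are class medians. The points of the MPP10 complex lie below 0 in all 3 mutants, while the RNA exosome has its median at 0.69 in mutant 2.

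The UTP-A complex joins the precursor first, and in yeast its members are also linked to transcription of the ribosomal RNA genes. Of its 6 genes 3 were lower in all 3 mutants (2 under either other scaling tried), and the class medians were -1.04, -0.33 and -0.22. Under the scaling used here, 14.6% of all genes on both formats were lower in all 3 mutants, the share to set beside each class count. UTP4, a WD-repeat subunit, had a Ye6100 signal of 50.7 in control 1/2 against 10.3 in mutant 1 and 10.5 in mutant 2, with scaled S98 signals of 97.3 (control 3) and 48.7 (mutant 3). These are log2 ratios of -2.30, -2.27 and -1.0, and the mutants lie below the control on both formats. UTP4 did not enter the main test, and limma without the signal filter gave it a change of -1.73 ± 0.45 (SE; adjusted p = 0.618). UTP5, another WD-repeat subunit, had signals of 159.0 in control 1/2 against 83.9 in mutant 1 and 72.3 in mutant 2 on Ye6100, and of 363 and 298 in control 3 and mutant 3, a fitted change of -0.71 ± 0.36. For UTP15 the control signal of 68.4 stood against 30.1 in mutant 1 and 66.6 in mutant 2, and 157 against 141 on S98, so that mutant 1 stood furthest below its control. UTP10, a long helical repeat protein, had log2 ratios of -1.12, -0.62 and 0.31, and UTP9, the highest of the class in the fit, of -0.43, 0.27 and -0.28.

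The UTP-B complex binds after UTP-A and contacts the U3 snoRNA. All 4 of its members found by the rule were lower in mutant 1, against 36% of all genes on both formats. The class median was -0.78 in mutant 1, while in mutants 2 and 3 the medians were 0.00 and -0.09. UTP13 was the 1 member lower in all 3 mutants (2 members under either other scaling tried), with log2 ratios of -0.80, -0.22 and -0.20 and a fitted change of -0.38 ± 0.36. UTP21 had ratios of -0.72, -0.45 and 0.01, and UTP18 of -0.76, 0.22 and -0.28. For UTP6 the signals were 72.5 in control 1/2 against 38.3 in mutant 1 and 93.1 in mutant 2, while control 3 and mutant 3 read 156 and 189. UTP6 was thus below its control in isolate SCY820 and above it in both samples of SCY840.

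The UTP-C class, which links the processome to regulatory kinases in yeast, had 0 of 3 genes lower in all 3 mutants, and 1 of 3 under either other scaling tried. Its medians were -0.63, -0.24 and 0.31. RRP7 had log2 ratios of -0.63, -0.24 and 0.37. UTP22 had ratios of -0.39, 0.39 and 0.31, and its fitted change of 0.13 ± 0.39 turned to -0.031 under median centring and -0.047 under quantile normalization. The S98 array carries 6 probe sets for UTP22, and 4 of them had both signals above the filter. The log2 ratios of these 4 in mutant 3 ran from -0.48 to 0.31 with a median of -0.17, and the brightest one, used here, was the highest. RRP36, under the signal filter, had Ye6100 signals of 23.3 in control 1/2 against 14.6 in mutant 1 and 13.4 in mutant 2, while control 3 and mutant 3 read 88.5 and 90.2.

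The MPP10 complex of MPP10, IMP3 and IMP4 tethers the U3 snoRNA to the precursor. All 3 of its genes were lower in all 3 mutants, with class medians of -1.16, -0.76 and -0.66 and a median fitted change of -0.86, the lowest of the 9 classes. MPP10 had Ye6100 signals of 75.4 in control 1/2 against 43.5 in mutant 1 and 26.5 in mutant 2, and scaled S98 signals of 110 and 72.7. Its log2 ratios were -0.79, -1.51 and -0.60, with a fitted change of -0.92 ± 0.42 (limma adjusted p = 0.757). IMP3 had 72.1 in control 1/2 against 30.0 in mutant 1 and 42.5 in mutant 2, and 265 and 168 on S98. Both genes were therefore at least 1.5-fold lower in each mutant sample. IMP4 had 388.8 in control 1/2 against 173.7 in mutant 1 and 299.7 in mutant 2, and 654 and 347 on S98. Its ratio in mutant 2, -0.38, was about the size of the chip-to-chip SD, while those in mutants 1 and 3 were -1.16 and -0.91.

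**Figure D4:**
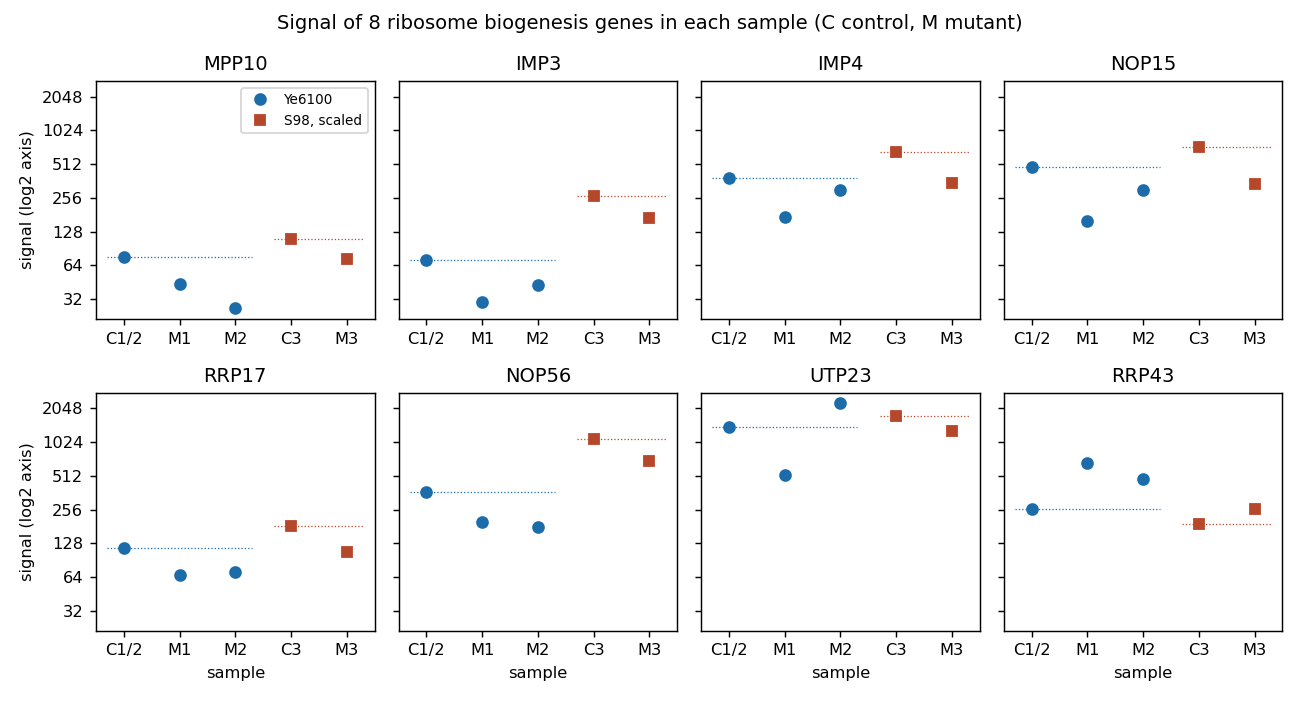
Signal on a log2 axis of 8 genes in each of the 5 samples; circles are Ye6100 and squares scaled S98 signals, and the dotted lines mark the control of each format. For MPP10, IMP3, IMP4, NOP15, RRP17 and NOP56 every mutant point lies below its own control line, for UTP23 mutant 2 lies above it, and for RRP43 all 3 mutants lie above it.

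The box C/D snoRNP core proteins carry the guide RNAs that direct methylation of ribosomal RNA, and RRP9 is specific to the U3 snoRNP. Of the 4 genes on both formats 3 were lower in all 3 mutants (2 under quantile normalization), with medians of -0.95, -0.88 and -0.38. NOP56, a scaffold protein, had 366.1 in control 1/2 against 199.5 in mutant 1 and 179.2 in mutant 2, and 1092 and 693 on S98, a fitted change of -0.83 ± 0.36. It was the one gene of this class at least 1.5-fold lower in every mutant. NOP58, its partner in the scaffold, had 822.1, 599.6 and 227.4 on Ye6100 and 4050.4 and 3498 on S98. Its 4 probe sets on S98 all read lower in mutant 3, with log2 ratios from -0.62 to -0.21. NOP1, the methyltransferase known as fibrillarin in animals, had 924.1, 441.7 and 553.9 on Ye6100 and 2037 and 1608 on S98, a fitted change of -0.66 ± 0.38. RRP9 had log2 ratios of -1.03, 0.06 and -0.42, so that mutant 2 stood level with the control.

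The other 18 small subunit factors act within the processome or on later 40S precursors. Their signals were lower in all 3 mutants for 11 genes, with medians of -0.76, -0.38 and -0.26, and all 18 were lower in mutant 1. Of all genes on both formats 14.6% were lower in all 3 mutants and 36% in mutant 1. The 3 lowest fitted changes belonged to ENP2 (-0.78 ± 0.37), NOP14 (-0.77 ± 0.44) and NOP19 (-0.75 ± 0.40), all components of the processome. ENP2 had 82.8 in control 1/2 against 37.2 in mutant 1 and 37.7 in mutant 2, and 212 and 173 on S98. NOP14 had 43.8, 25.2 and 21.5 on Ye6100 and 70.0 and 47.0 on S98. NOP19 had 54.0, 22.5 and 40.3 on Ye6100 and 364 and 234 on S98. In each of these the Ye6100 and S98 mutants lay on the same side of their controls. UTP20, a very long repeat protein, was the highest of the class at -0.13 ± 0.40, and of its 10 probe sets on S98 only 2 had both signals above the filter, with ratios of -0.19 and 0.08 in mutant 3.

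UTP23, needed for the release of the snoRNA snR30 from the precursor, was the only one of the 73 genes with mutants at least 1.5-fold from the control on opposite sides. Its Ye6100 signal was 1386.2 in control 1/2 against 519.0 in mutant 1 and 2258 in mutant 2, and on S98 it was 1749.9 in control 3 and 1274 in mutant 3. The log2 ratios were -1.42, 0.70 and -0.46. Mutants 2 and 3 carry the same isolate, SCY840, and lay on opposite sides of their controls.

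Of the 25 large subunit factors, the largest class, 19 were lower in all 3 mutants, against 14.6% of all genes on both formats. The class medians were -0.78, -0.73 and -0.36, with a median fitted change of -0.60. NOP15, an RNA-binding protein of large subunit precursors, had the lowest fitted change of all 68 tested genes. Its Ye6100 signal was 479.4 in control 1/2 against 158.9 in mutant 1 and 302.4 in mutant 2, and its scaled S98 signal was 721 in control 3 and 340 in mutant 3. All 3 mutants were below their control, by log2 ratios of -1.59, -0.66 and -1.09, and the fitted change was -1.11 ± 0.43 (unadjusted p = 0.0427, limma adjusted p = 0.735). RRP8, a methyltransferase that modifies the large ribosomal RNA, had 117.9, 43.1 and 47.2 on Ye6100 and 736 and 526 on S98, a fitted change of -1.0 ± 0.37 (unadjusted p = 0.0371, limma adjusted p = 0.727). The S98 difference of RRP8, at -0.48, was smaller than those on Ye6100, at -1.45 and -1.32.

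DBP3, a DEAD-box helicase that helps early cleavage of the precursor, had 521.2 in control 1/2 against 303.2 in mutant 1 and 178.3 in mutant 2, and 752 and 498 on S98, a fitted change of -0.92 ± 0.42. RRP17, an exonuclease that trims the 5' ends of large subunit RNAs, had 117.2, 67.2 and 70.6 on Ye6100 and 181 and 106 on S98. RRP17 gave nearly equal differences in the 3 mutants, with log2 ratios of -0.80, -0.73 and -0.77. DBP10, a helicase, was the highest of the class at 0.17 ± 0.34, with ratios of 0.45, 0.40 and -0.16.

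NOP4, NOP8 and RRP14, all large subunit factors, lay under the signal filter through low Ye6100 signals. NOP4, an RNA-binding protein, had 47.2 in control 1/2 against 19.1 in mutant 1 and 8.9 in mutant 2, and 161 and 128 on S98. NOP8, which works with the helicase Dbp6, had 30.6, 21.3 and 14.9 on Ye6100 and 195 and 88.1 on S98. RRP14, known to be needed for both subunits in yeast, had 44.3, 23.8 and 7.8 on Ye6100 and 263 and 188 on S98. In all 3 genes every mutant was below its control, and their fitted changes in the fit without the filter were -1.20 ± 0.58, -0.94 ± 0.39 and -1.18 ± 0.64.

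The 3 DBP genes with main roles outside ribosome assembly were DBP2, DBP5 and DBP1. DBP2, a nuclear helicase of mRNA packaging and decay, had 744.7 in control 1/2 against 200.9 in mutant 1 and 407.0 in mutant 2, and 1481 and 1167 on S98, a fitted change of -0.94 ± 0.50. DBP2 has an intron, and a probe set for its first exon read 662.8, 197.5 and 195.6, which gives mutant 2 a ratio of -1.76 in place of -0.87. DBP5, which releases mRNA at the nuclear pore, had log2 ratios of -0.60, -0.22 and -0.23. DBP1, a helicase of translation initiation and a close relative of DED1, had low signals of 33.8, 46.3 and 10.3 on Ye6100 and 26.9 and 39.2 on S98, so that only mutant 2 was below its control.

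The RNA exosome genes had mixed values. Of the 7 with an RRP name 1 was lower in all 3 mutants (3 under either other scaling tried) and 1 was higher. Under the scaling used here, 14.6% of all genes on both formats were lower in all 3 and 25.1% were higher. For so few genes the count of 1 lower lies near that share. The medians were -0.19, 0.69 and 0.02, the last being -0.24 under median centring and -0.019 under quantile normalization. RRP43, a ring subunit, had 260.4 in control 1/2 against 663.8 in mutant 1 and 482.4 in mutant 2, and 191 and 261 on S98. It was the only one of the 73 genes above its control in all 3 mutants, under each of the 3 scalings tried, with log2 ratios of 1.35, 0.89 and 0.45 and a fitted change of 0.83 ± 0.39 (limma adjusted p = 0.770). RRP4, a cap subunit, was the gene lower in all 3 mutants under the scaling used here, with ratios of -0.19, -0.40 and -0.10. RRP6, the exonuclease of the nuclear exosome, had ratios of -0.68, -0.59 and 0.25, and RRP46, a ring subunit, of -0.19, -0.29 and 0.02. Leaving the exosome out, 38 of 61 tested genes were lower in all 3 mutants, against 14.6% of all genes tested, and the median fitted change was -0.44. Whether the exosome and the assembly factors differ was not tested. The 7 tested exosome subunits and partners without an RRP name had a median fitted change of -0.20. Of these, 2 of 7 were lower in all 3 mutants, against 14.6% of all genes tested. Among them MTR4, the helicase that feeds the nuclear exosome, had -0.59 ± 0.60, LRP1 -0.52 ± 0.42, MPP6 -0.41 ± 0.35, MTR3 -0.20 ± 0.38, CSL4 -0.15 ± 0.44, SKI6 -0.03 ± 0.45 and DIS3, the catalytic subunit, 0.00 ± 0.40.

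A list of 78 other assembly factors, whose symbols the rule does not take, showed the same direction. Of the 74 tested, 35 were lower in all 3 mutants, 0 were higher, and 4 were at least 1.5-fold lower in all 3, against 14.6%, 26.2% and 1.42% of all genes tested. Their median fitted change was -0.40, and the 68 tested genes of the rule had -0.37. Limma called 0 of them, and at an unadjusted p under 0.05 there were 4 lower genes and 0 higher, against 1.12% and 5.44% of all genes tested. The lowest were HAS1, a DEAD-box helicase, at -1.37 ± 0.49, EBP2 at -1.20 ± 0.44, PXR1 at -1.15 ± 0.49, PWP1 at -1.14 ± 0.49 and SDA1 at -1.12 ± 0.48. HAS1 had signals of 271.4 in control 1/2 against 81.7 in mutant 1 and 53.1 in mutant 2, and 466 and 335 on S98. The highest were SSF1, which has a near-identical paralog in SSF2 whose transcripts the probes may not separate, at 0.42 ± 0.55, and REA1, the large ATPase of 60S maturation, at 0.18 ± 0.41.

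Cytosolic ribosomal protein genes, which yeast regulates together with the assembly factors in many conditions, were set beside them. For 65 tested genes the median log2 ratios were -0.66, 0.18 and -0.25, and the ratios in mutant 3 ran from -1.08 to 9.65. That top value was also the highest mutant 3 ratio of all 5315 genes. In mutants 1 and 2 the highest ribosomal protein ratios were 0.53 and 1.35. Ribosomal protein genes that S98 names only by probe sets with several symbols are not among the 65. The medians of the ribosomal protein genes and the assembly factors were thus both below 0 in mutants 1 and 3, and on opposite sides of 0 in mutant 2. There 14 of 65 ribosomal protein genes were lower, against 2206 of all 4287 genes tested. Whether the groups differ in mutant 2 was not tested.

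Regulators of these genes gave no common direction. Of 9 listed genes 8 were tested, and their fitted changes ran from -0.28 ± 0.42 for IFH1 to 0.46 ± 0.39 for RRN3, an initiation factor of RNA polymerase I. FHL1, which acts with IFH1 at ribosomal protein promoters, had 0.40 ± 0.55. CRF1, a co-repressor, lay under the signal filter. DOT6 and TOD6, repressors that bind the PAC element of assembly factor promoters, had -0.07 ± 0.84 and 0.27 ± 0.42, and STB3, which binds the RRPE element, had 0.13 ± 0.69. SFP1, an activator that follows growth signals, had -0.16 ± 0.72 and the kinase gene SCH9 0.03 ± 0.47. On Ye6100 mutant 2 was at least 1.5-fold below mutant 1 for 4 of the 8, against 1596 of all 4287 genes tested. It was at least 1.5-fold above mutant 1 for 2, against 809 of the 4287. For so few genes these counts lie near those shares. They also depend on the scaling, as the median difference of all genes was -0.28 here and 0.13 under median centring. The log2 ratios in mutants 1 and 2 were 0.69 and -1.94 for DOT6, 0.75 and -1.47 for SFP1, 0.72 and -1.25 for STB3 and 0.42 and -0.70 for SCH9. In the other direction they were 0.07 and 0.95 for TOD6 and 0.46 and 1.06 for FHL1.

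On Ye6100 the isolates can be set against each other, with 1 sample each and no test, so that isolate and sample cannot be told apart. The median log2 difference, mutant 2 minus mutant 1, was 0.27 for the 73 genes and -0.28 for all genes. Mutant 2 was at least 1.5-fold above mutant 1 for 25 of 73 genes, against 17.1% of all genes, and at least 1.5-fold below it for 8, against 38.4%. The difference depended on the scaling. Under median centring the median was 0.68, against 0.13 for all genes, with 40 genes above (30%) and 4 below (25%). Under quantile normalization it was 0.69 against 0.09, with 41 genes above (28.1%) and 3 below (24.3%). UTP23 had the highest difference, 2.12, and DBP1 the lowest, -2.17. The ACT1 ratio of 5' to 3' signal and the ribosomal RNA and general stress signals given above also differed between these samples.

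In the chromosome order of the reference table the 73 genes lay on 14 chromosomes, and 8 of them had a listed assembly gene as their next gene. RRP15 and NOC4 on chromosome XVI were the one pair of neighbours within the rule, with log2 ratios of -0.41, -0.11 and -0.18 for RRP15 and -0.59, 0.49 and -0.76 for NOC4. Of the 6 pairs with a factor outside the rule, DBP8 and NMD3 on chromosome VIII were lower in all 3 mutants in both genes, at -0.85, -0.91 and -0.39 and at -1.40, -0.82 and -0.65. The same held for NOP56 and PWP1 on chromosome XII, where PWP1 had -1.36, -2.14 and -0.33. NSA2 and LCP5 on chromosome V differed in mutant 2, with 0.29 and -1.10. These genes are named for their position and were chosen after their values were seen.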

How the data were processed

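Poly(A)+ RNA of 14 array samples, which are 5 RNA samples, was labelled with biotin, per the labels' protocols. The deposited values are linear intensities per probe set that the authors made in MAS5, according to the submitters' processing notes. The sources used here give no version, scaling target or build, and precision is limited by how few arrays there are. The 4 chips of a Ye6100 sample are joined in 1 column, per the file headers, and counted as 1 replicate.

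On Ye6100 the samples have 2% trimmed means of 250.1, 249.7 and 249.7 and were used as deposited. S98 control 3 (500.3) and mutant 3 (250.1) were multiplied by 0.707 and 1.41. Signals under the 5th percentile (2.4 and 1.98) were raised to it before log2 was taken. A gene takes its brightest probe set and was tested when that mean exceeded the 25th percentile (25.4 and 28.1) on both formats. Ye6100 probe sets were named by systematic name (5840 of 6593 matched the R64 reference table), and S98 probe sets by the platform annotation (6504 of 9335 with 1 symbol, 328 with several, 2503 with none).

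The test was limma 3.58.1 in R 4.3.3 (lmFit, eBayes with a trend), genotype with array format as block, two-sided, with Benjamini-Hochberg adjustment over all 4287 genes. The format is also the pairing of each mutant with its control. On simulated data for this comparison (4287 genes, 10 runs) 4.63%, 49.9% and 96.2% of genes changed by log2 1, 2 and 3 were called. Every simulated gene had the same SD, which the measured genes do not, so these rates need not hold for the measured genes. Other settings tried were the scaling, the floor, the filter, the choice of probe set, no block, no trend, a 2-fold threshold and each sample left out. A fit without cross-hybridising probe sets was chosen after seeing the data. Figures used matplotlib 3.10.9 in Python 3.11.15.

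The members, the gene lists and the naming rule were chosen with earlier results of these data known. The rule names, in each class, the 3 lowest and the highest fitted change (all genes in classes of 4 or fewer), every gene at least 1.5-fold lower in all 3 mutants, at least 1.5-fold from the control on opposite sides, or under the filter, the 5 lowest and 2 highest other assembly factors, and all tested regulators and exosome partners. Promoter motifs were not analysed here.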

Additional observations from a re-analysis of the deposited data

Results flagged for a closer look

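In 4 genes the sample of isolate SCY820 lay on one side of its control and both samples of isolate SCY840 on the other. UTP6, of the UTP-B complex, had a log2 ratio of -0.92 in SCY820 (mutant 1) and 0.36 and 0.28 in SCY840 (mutants 2 and 3). NSA2, a large subunit factor, had -0.69 against 0.29 and 0.13. UTP22, of the UTP-C class, had -0.39 against 0.39 and 0.31, where the value of mutant 3 rests on 1 of 6 probe sets. RRP42, a ring subunit of the exosome, had -0.17 against 0.82 and 0.16. The difference between the isolates was not tested, as SCY820 is present in 1 sample. The same pattern was found for 511 of all 5315 genes, 9.61%. Under median centring 2 of the 4 genes, UTP6 and UTP22, kept it, as RRP42 and NSA2 then read below the control in mutant 3, and 11% of all genes had it. Under quantile normalization all 4 kept it, with 11.2% of all genes.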

How the results depend on the processing

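The median log2 ratio of the tested genes stayed below 0 in every mutant under each scaling, floor, filter and probe set choice tried. Scaling moved the median of all genes by over 0.1. With median centring it was -0.06, 0.07 and -0.12 in mutants 1, 2 and 3, and 0.24, -0.04 and 0.13 as reported. The median of the tested genes in mutant 1 was -0.75 as reported, -1.06 with median centring and -1.07 with quantile normalization, that in mutant 3 was -0.22, -0.47 and -0.40, and the difference between isolates was 0.32, 0.73 and 0.71. Of 68 genes 39 were lower in all 3 mutants as reported (14.6% of all genes), 43 with median centring (21.9%) and 21 of 39 with the filter at the 50th percentile, where fewer genes are tested. The count at least 1.5-fold lower in all 3 was 6, 11 with median centring, 0 at 2-fold, and 6 to 22 when a sample was left out, since fewer ratios then have to pass (10 without mutant 2, 11 without control 1/2, 22 without mutant 3 or control 3). Without the replicate block the median fitted change was -0.67, against -0.37, and limma called 0 of the genes in both. With 1 sample left out, that median ran from -0.60 to -0.22. Limma called 0 to 9 of the genes when a sample was left out. The 9 were called without mutant 2: DBP2, IMP3, IMP4, NOP15, NOP19, RLP24, RLP7, RRP8 and UTP23, all lower, while it then called 2.29% of all genes lower and 13.3% higher. The cause was not tested. The floor, filter and variance trend settings left the fitted change of each named gene as it was, so its direction could not change there. Leaving out mutant 3 and leaving out control 3 gave the same fitted changes, and both are counted. The probe set choices altered few of the genes. Of 461 alternative values for 34 named genes, these included, 435 kept direction and side, and 7 passed the threshold, all without mutant 2. The other 19 changed sign. They were UTP22 with median centring (-0.031), quantile normalization (-0.047) and the mean of probe sets (-0.20), and DBP10 without the block (-0.083). Without mutant 1 they were RRP7 (0.065), UTP20 (0.0084), UTP23 (0.12) and UTP6 (0.32), without mutant 2 DBP1 (0.50) and UTP22 (-0.040). Without control 1/2, which leaves only the S98 pair, they were DBP1 (0.54), DBP10 (-0.16), RRP46 (0.016), RRP6 (0.25), RRP7 (0.37), UTP10 (0.31), UTP20 (0.082), UTP21 (0.014) and UTP6 (0.28). With other samples left out, the opposite ends of these ranges were -0.63 (DBP1), -0.43 (RRP7), -0.28 (UTP20), 0.35 (UTP22), -0.94 (UTP23) and -0.32 (UTP6). Signals near the floor limit UTP4, RRP14, NOP4 and DBP1.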

Other observations

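The ribosomal RNA control probe sets were also read by subunit, and the 18S and 25S ranges overlapped in each mutant. In mutant 3 the log2 ratios ran from 0.19 to 1.17 for 18S and from -0.51 to 0.48 for 25S. Whether the subunits differ was not tested. For 18S RNA of the small subunit, 5 probe sets had median log2 ratios of -1.35 in mutant 1, -3.01 in mutant 2 and 0.74 in mutant 3. For 25S RNA of the large subunit, 5 probe sets had -1.07, -3.58 and -0.25. On Ye6100 all 10 probe sets were lower in both mutants, and on S98 3 of 10 were lower, all of them for 25S. These RNAs were measured after poly(A) selection, so their signals are what that selection left behind.

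Among the genes of mating type a, MFA2, a pheromone gene, had log2 ratios of -1.26, -1.32 and -0.89, and STE2, the receptor for the alpha pheromone, had -1.07, -0.76 and -1.23. MFA1, the other a-factor gene, had 0.63, 0.51 and -0.19. AGA2 had -0.54, -0.34 and -1.05, BAR1 -0.58, -0.33 and 0.34, and STE6 0.08, 0.56 and -0.60. Of the 6 listed genes 3 were lower in all 3 mutants, against 14.6% of all genes tested. The fitted log2 changes were -1.12 ± 0.35 for MFA2 and -1.05 ± 0.35 for STE2, with limma adjusted p of 0.641 and 0.680. AGA2, BAR1, STE6 and MFA1 had fitted changes of -0.70 ± 0.35, -0.12 ± 0.37, -0.07 ± 0.39 and 0.24 ± 0.38. NTH1, the neutral trehalase, was the 1 of 17 tested general stress genes higher in all 3 mutants, with 1.74, 1.07 and 1.03. Of all genes tested 26.2% were higher in all 3. The fitted change of NTH1 was 1.24 ± 0.40 (limma adjusted p = 0.641).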
